A study of Mus musculus with 10 samples.

Results

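Transcripts of 10 autophagy receptor genes were examined in wildtype mouse embryonic fibroblasts made immortal by T antigen, the tumour virus protein that disables p53 and the retinoblastoma protein. The genes were chosen by name and role and not by a threshold on their values, though with earlier results of these data known. All 10 were found among the 78317 genes of the table. They fall into ubiquitin-binding receptors (Sqstm1, Nbr1, Optn and Tax1bp1), mitochondrial receptors with the kinase that marks damaged mitochondria (Bnip3, Bnip3l, Fundc1 and Pink1), and a receptor and a scaffold for other cargo (Ncoa4 and Wdfy3). Both groups of cultures came from complete medium at 37 °C and 10% CO2; 5 libraries were made after 24 h at 2% CO2 (hypocapnia) and 5 after the same time at 10% CO2. At each CO2 level, batch 1 held replicates 1 to 3 and batch 2 held replicates 4 and 5; the labels do not say what set the batches apart. The cells are 1 immortalized line, and whether replicates were separate cultures is not stated, so p-values measure the spread between libraries, which may be technical.

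Selective autophagy removes particular cargo by means of receptors that hold the cargo with one part and a protein of the LC3 and GABARAP family on the growing autophagosome with another. Ubiquitin-binding receptors recognise ubiquitin chains on protein aggregates, damaged mitochondria and bacteria, whereas BNIP3, BNIP3L (NIX) and FUNDC1 sit in the outer mitochondrial membrane and need no ubiquitin. PINK1, a kinase and not a receptor, gathers on depolarised mitochondria and phosphorylates ubiquitin there. Receptors are consumed together with their cargo, so the transcript level of a receptor need not follow the level of its protein, which was not measured here.

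Libraries held between 178676 and 12354538 estimated counts, and 3 were shallow: 2% CO2 replicates 2 and 3 with 178676 and 506405 counts and 10% CO2 replicate 5 with 892318. Levels are in CPM, counts scaled by the library total. A single count was worth 5.60 CPM in 2% CO2 replicate 2, and the 10 genes had between 1 and 34 counts there. CPM does not correct for transcript length, and no source used here says how reads are spread along transcripts, so levels are compared between libraries and not between genes. Of the fibroblast markers, Col1a1, Col1a2 and Vim were abundant, whereas Lum and Dcn had 3 and 34 counts in all. The summed level of the 9 fibroblast markers ran from 3698 to 7750 CPM at 2% CO2 and from 7386 to 12100 CPM at 10% CO2. Of the 6 tested markers 5 were lower at 2% CO2, beside 6.73% of all tested genes by the same test. Mean levels of Pdgfra and Dcn were higher at 2% CO2 (2.01 against 1.16 CPM and 3.25 against 0.477 CPM), and those of the other fibroblast markers were lower. The 4 epithelial markers summed to 2.20 to 30.8 CPM at 2% CO2 and 4.56 to 8.96 CPM at 10% CO2, the 4 macrophage markers to 0 to 3.95 CPM and 2.35 to 3.77 CPM with Adgre1 at 0 in all libraries, and the 3 skeletal muscle markers to 0 to 5.60 CPM and 0.223 to 3.36 CPM. The 3 endothelial markers summed to 7.90 to 14.97 CPM at 2% CO2 and 4.07 to 7.73 CPM at 10% CO2, of which Kdr alone was tested and was higher. The part of these differences in the receptor levels was not tested. In bulk RNA, fewer cells with a transcript and less transcript per cell cannot be told apart.

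The question was whether 2% CO2 changed receptor transcripts relative to 10% CO2. Bnip3, a mitochondrial receptor, and Sqstm1, a ubiquitin-binding receptor, rose at 2% CO2, and no receptor gene fell. Bnip3 was 1.95-fold higher (95% interval 1.46 to 2.61) and Sqstm1 1.27-fold (1.11 to 1.46), while the other 8 genes did not pass the threshold. All 10 genes passed the filter on low counts. The 2 calls in 10 genes stand beside 12.0% of all 13198 tested genes called in either direction with 5.30% called higher and 6.73% lower (700 and 888 genes, or 1031 and 614 with scaling to library totals). A call is a Benjamini-Hochberg adjusted p under 0.05 over all tested genes in edgeR's two-sided quasi-likelihood test with batch in the model. Log2 fold changes are 2% minus 10% CO2, and their errors are standard errors (SE).

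**Figure D1:**
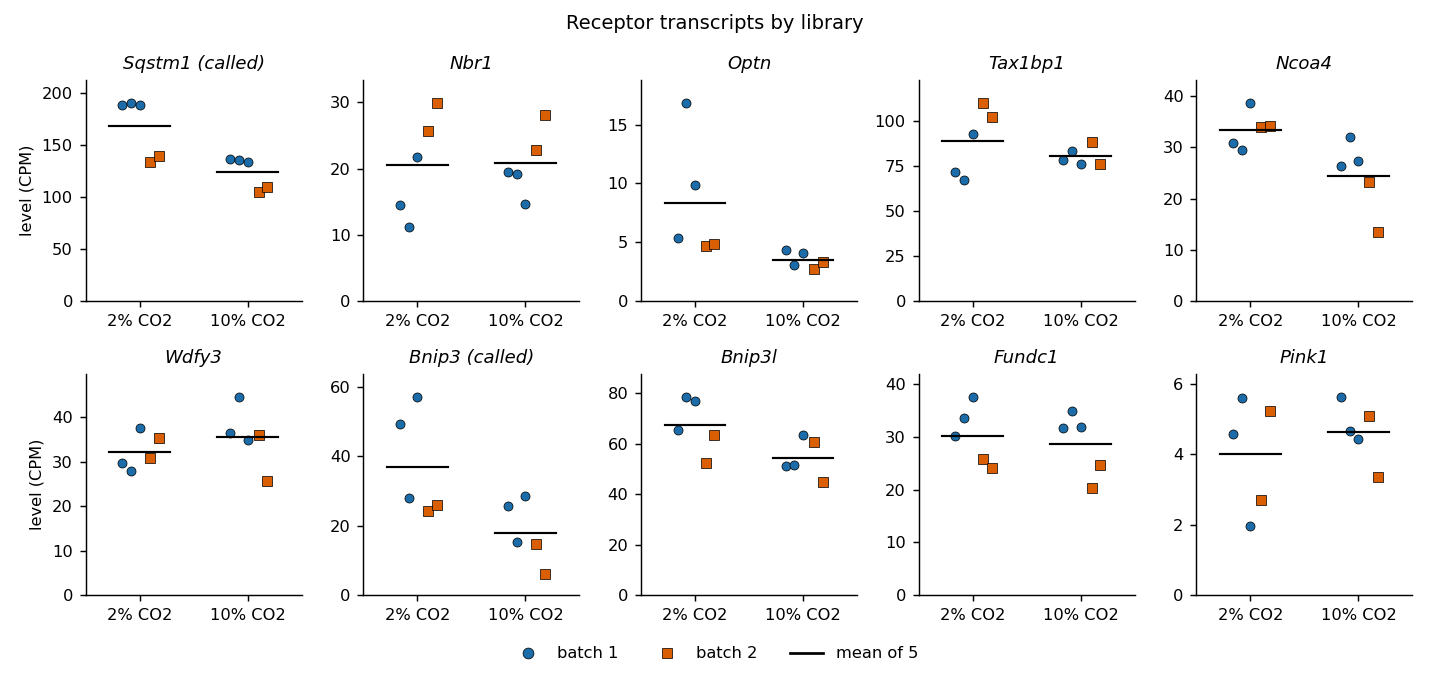
Level of each receptor transcript (CPM, linear axes from 0) in every library at 2% CO2 (left) and 10% CO2 (right), with circles for batch 1, squares for batch 2 and a line at the mean of 5. In Sqstm1 the libraries of the CO2 levels separate within each batch, at 189 against 136 CPM on average in batch 1 and 137 against 108 CPM in batch 2.

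Among the mitochondrial receptors, Bnip3 encodes a BH3-domain protein of the outer mitochondrial membrane that binds LC3 directly and is a textbook target of hypoxia-inducible factor (HIF). Its level was 49.2, 27.98, 56.9, 24.2 and 25.9 CPM in 2% CO2 replicates 1 to 5, against 25.7, 15.4, 28.4, 14.6 and 5.97 CPM in 10% CO2 replicates 1 to 5. Every same-numbered pair was higher at 2% CO2, as was true of 12.6% of all tested genes. Both batch 2 libraries at 2% CO2 lay above those at 10% CO2, as in 36.2% of genes tested in that batch. In batch 1 the 2% CO2 replicate 2, with 5 counts, lay just under the highest 10% CO2 library. The lowest value of all, in 10% CO2 replicate 5 of batch 2, rests on 5.33 counts. The means were 36.8 ± 15.1 CPM in 2% CO2 cultures and 18.01 ± 9.10 CPM in 10% CO2 cultures (SD, n = 5 each). That gave a log2 fold change of 0.97 ± 0.20 (SE; 95% interval 0.55 to 1.38; edgeR adjusted p = 0.00493). Within batch 1 it was 1.08 ± 0.25 (adjusted p = 0.0199) and within batch 2 0.85 ± 0.24 (adjusted p = 0.111), the only receptor call in either batch alone. In batch 1 6.22% of genes were called (2.66% higher and 3.56% lower), and in batch 2 1.83% (0.848% higher and 0.978% lower). The call was kept in all 10 fits that left out a library, at adjusted p of up to 0.0392, and without the 3 shallowest libraries (log2 fold change 0.91, adjusted p = 0.0308). Without the batch term the difference of 0.82 did not pass (adjusted p = 0.250).

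The Bnip3 promoter is shown because the gene had the largest fold change of the 10 and its window holds the core letters of the HIF response element. It is the RefSeq window of 250 bases before and 50 bases after the annotated start in build GRCm38.p6, chr7:138909457-138909756, minus strand, printed 5′ to 3′ in the gene's direction. Capitals mark ACGTG or GCGTG on either strand, which overlap within the palindrome CACGTG.
Bnip3 promoter: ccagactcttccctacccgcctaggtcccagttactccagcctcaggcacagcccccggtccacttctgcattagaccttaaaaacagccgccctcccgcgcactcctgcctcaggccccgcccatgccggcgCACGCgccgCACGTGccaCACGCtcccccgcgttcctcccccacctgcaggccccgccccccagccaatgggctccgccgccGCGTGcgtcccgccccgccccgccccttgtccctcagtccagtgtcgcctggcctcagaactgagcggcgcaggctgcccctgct
The capitals fall in 4 runs, all before the start. ACGTG occurs in 19.6% and GCGTG in 32.4% of 32851 RefSeq promoters of this length, and CACGTG in 7.15%. Of the 8 receptor genes with a promoter in that table, 4 held ACGTG (Bnip3, Nbr1, Ncoa4 and Tax1bp1), 5 held GCGTG (Bnip3, Ncoa4, Optn, Pink1 and Tax1bp1) and Bnip3 alone held CACGTG. These are counts of genes over 12 windows, since some genes have more than 1 promoter in the table and so more than 1 chance of a match, whereas the shares above are per promoter. The Bnip3 window is 71.7% G and C, against a median of 52.7% over all promoters, and base composition bears on such counts. A match of letters is a description and not a binding site.

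Bnip3 counts were fractional in 8 of 10 libraries, which shared reads can give. In GENCODE M21 transcripts (build GRCm38, used as a gene property), the pseudogenes Gm6532, Gm16439, Gm14506 and Gm9419 share stretches of 50 bases with Bnip3. They held 12.0, 10.8, 4 and 1 counts over all libraries, against 1449 for Bnip3. With their counts added the log2 fold change was 0.96 (adjusted p = 0.00527, an alternative chosen after seeing the data). The antisense transcript Gm45507, which overlaps Bnip3, held 3.5 counts, and without stated strandedness such reads cannot be told apart.

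Bnip3l encodes NIX, the paralog of BNIP3 that clears mitochondria from maturing red cells. It was at 65.5, 78.4, 77.0, 52.4 and 63.5 CPM in 2% CO2 replicates 1 to 5, against 51.2, 51.7, 63.4, 60.6 and 44.8 CPM in 10% CO2 replicates 1 to 5. In batch 1 every 2% CO2 library lay above every 10% CO2 library, as in 13.2% of genes tested there. The CO2 levels overlapped in batch 2. Its log2 fold change was 0.13 ± 0.12 (95% interval -0.12 to 0.39), with 0.32 ± 0.16 in batch 1 and -0.05 ± 0.16 in batch 2. It did not pass (edgeR adjusted p = 0.923). That p comes from a Poisson comparison with which edgeR bounds genes of little spread; the F test alone gave an unadjusted p of 0.287. The pseudogene Bnip3l-ps held 46.6 counts against 3590 for Bnip3l, and 7 libraries gave Bnip3l fractional counts.

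Fundc1 encodes an outer membrane receptor whose binding to LC3 is set by phosphorylation. It was at 30.1, 33.6, 37.5, 25.7 and 24.1 CPM in 2% CO2 replicates 1 to 5, against 31.6, 34.9, 32.0, 20.4 and 24.7 CPM in 10% CO2 replicates 1 to 5. The groups overlapped in both batches. A log2 fold change of 0.04 ± 0.12 has a 95% interval of -0.21 to 0.28, a fold between 0.863 and 1.216 (edgeR adjusted p = 0.912). It turned to -0.07 without 10% CO2 replicate 4, to -0.01 without 2% CO2 replicate 4 and to -0.11 with no batch term.

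Pink1 was low, at 4.58, 5.60, 1.97, 2.71 and 5.23 CPM in 2% CO2 replicates 1 to 5, against 5.62, 4.67, 4.44, 5.09 and 3.36 CPM in 10% CO2 replicates 1 to 5. The values of 2% CO2 replicates 2 and 3 rest on 1 count each and that of 10% CO2 replicate 5 on 3 counts. A log2 fold change of -0.32 ± 0.27 did not pass (edgeR adjusted p = 0.489). Its 95% interval runs from -0.88 to 0.24, a fold between 0.543 and 1.18.

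Among the ubiquitin-binding receptors, Sqstm1 encodes p62, which binds ubiquitin, polymerises through its PB1 domain and also holds KEAP1, the inhibitor of the factor NRF2. Its level was 189, 190.3, 189, 134 and 139.7 CPM in 2% CO2 replicates 1 to 5, against 137, 136, 134, 105 and 109.8 CPM in 10% CO2 replicates 1 to 5. Within each batch every 2% CO2 library lay above every 10% CO2 library. This held for 13.2% of genes tested in batch 1 and 36.2% in batch 2. Across batches the CO2 levels overlapped, as the batch 2 libraries at 2% CO2 lay at the level of batch 1 libraries at 10% CO2. The means were 168 ± 28.6 CPM in 2% CO2 cultures and 125 ± 15.5 CPM in 10% CO2 cultures (SD, n = 5 each). That gave a log2 fold change of 0.35 ± 0.09 (SE; 95% interval 0.16 to 0.54; edgeR adjusted p = 0.0192). It was 0.45 ± 0.13 in batch 1 (adjusted p = 0.0538) and 0.26 ± 0.12 in batch 2 (adjusted p = 0.270). Leaving out a library ended the call for 10% CO2 replicate 3 (adjusted p = 0.0561), 10% CO2 replicate 4 (0.0704) and 2% CO2 replicate 1 (0.0634), as did having no filter on low counts (0.0611) or no batch term (0.318). It was kept without the 3 shallowest libraries (log2 fold change 0.40, adjusted p = 0.0348).

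The Sqstm1 promoter, the window of the other gene that rose, is RefSeq's 300 bases at chr11:50210771-50211070, minus strand, build GRCm38.p6, and capitals mark TATAAA, the TATA box letters, on either strand.
Sqstm1 promoter: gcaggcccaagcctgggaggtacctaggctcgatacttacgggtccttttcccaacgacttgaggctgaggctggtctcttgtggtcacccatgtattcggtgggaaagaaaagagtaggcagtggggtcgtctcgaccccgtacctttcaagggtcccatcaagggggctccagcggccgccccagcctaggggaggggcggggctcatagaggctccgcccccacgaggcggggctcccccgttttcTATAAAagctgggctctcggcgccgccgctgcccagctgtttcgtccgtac
The capitals begin 1 base before the annotated start and run across it. As with Bnip3, a match of letters is a description and does not show a TATA box in use. TATAAA occurs in 13.6% of all promoters in the table and among the receptor genes also in Ncoa4. ACGTG and GCGTG, like the palindrome CACGTG and the antioxidant response letters TGACNNNGC, which 12.4% of promoters hold, are not in this window, which says nothing of sequence outside it. Sqstm1 overlaps Mrnip on the opposite strand in the M21 transcripts; Mrnip had 233 counts over all libraries against 8276 for Sqstm1, and without stated strandedness reads of the overlap cannot be told apart.

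Optn encodes optineurin, a receptor of ubiquitin-coated mitochondria and bacteria that the kinase TBK1 activates. It was at 5.34, 16.8, 9.87, 4.69 and 4.90 CPM in 2% CO2 replicates 1 to 5, against 4.39, 3.12, 4.07, 2.73 and 3.36 CPM in 10% CO2 replicates 1 to 5. Every 2% CO2 library lay above every 10% CO2 library, which held for Optn alone of the 10 genes and for 3.19% of all tested genes (5.18% did not overlap in either direction). The counts were small, however, at 14, 3, 5, 58 and 59 in 2% CO2 replicates 1 to 5 against 25, 28, 33, 29 and 3 in 10% CO2 replicates 1 to 5. Its log2 fold change of 0.77 ± 0.25 (95% interval 0.23 to 1.30) missed the threshold (edgeR adjusted p = 0.0558). It was 0.87 ± 0.40 in batch 1 and 0.67 ± 0.33 in batch 2, and 0.63 without the 3 shallowest libraries (adjusted p = 0.134). Optn passed with scaling to library totals (adjusted p = 0.0414) and with limma-voom (0.0475).

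Nbr1 encodes the older relative of p62, with a PB1 and a ubiquitin-binding domain. It was at 14.5, 11.2, 21.7, 25.7 and 29.8 CPM in 2% CO2 replicates 1 to 5, against 19.5, 19.1, 14.7, 22.9 and 28.02 CPM in 10% CO2 replicates 1 to 5. The groups overlapped, and the value of 2% CO2 replicate 2 rests on 2 counts. Its log2 fold change of -0.01 ± 0.15 has a 95% interval of -0.33 to 0.30 (edgeR adjusted p = 0.979), and its sign changed with the scaling, being 0.05 with library totals.

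Tax1bp1 encodes a coiled-coil receptor that brings the autophagy-initiating complex to ubiquitinated cargo. It was at 71.7, 67.2, 92.8, 109.4 and 102 CPM in 2% CO2 replicates 1 to 5, against 78.2, 82.9, 75.8, 88.2 and 76.2 CPM in 10% CO2 replicates 1 to 5. The groups overlapped in batch 1, whereas both batch 2 libraries at 2% CO2 lay above those at 10% CO2, as in 36.2% of genes tested in that batch. Its log2 fold change was 0.07 ± 0.10 (95% interval -0.15 to 0.29; edgeR adjusted p = 0.726), with -0.06 ± 0.15 in batch 1 and 0.23 ± 0.13 in batch 2.

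Ncoa4 encodes the receptor that takes ferritin, the iron store, to lysosomes. It was at 30.9, 29.4, 38.5, 34.0 and 34.2 CPM in 2% CO2 replicates 1 to 5, against 26.3, 32.1, 27.3, 23.2 and 13.4 CPM in 10% CO2 replicates 1 to 5. In batch 2 both libraries at 2% CO2 lay above those at 10% CO2, as in 36.2% of genes tested there. In batch 1 the CO2 levels overlapped. The log2 fold change of 0.38 ± 0.14 (95% interval 0.09 to 0.67) missed the threshold (edgeR adjusted p = 0.0786), with 0.17 ± 0.19 in batch 1 and 0.60 ± 0.19 in batch 2. It passed with the replicate number as a block (log2 fold change 0.44, adjusted p = 0.0302) and without 10% CO2 replicate 2 (adjusted p = 0.0495). The pseudogene Ncoa4-ps held 25.5 counts against 1854 for Ncoa4.

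Wdfy3 encodes ALFY, a very large scaffold that ties p62-positive aggregates to the autophagosome. It was at 29.8, 27.98, 37.5, 31.0 and 35.3 CPM in 2% CO2 replicates 1 to 5, against 36.5, 44.5, 34.9, 36.0 and 25.8 CPM in 10% CO2 replicates 1 to 5. The groups overlapped in both batches, and the log2 fold change of -0.21 ± 0.13 (95% interval -0.48 to 0.05) did not pass (edgeR adjusted p = 0.305).

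**Figure D2:**
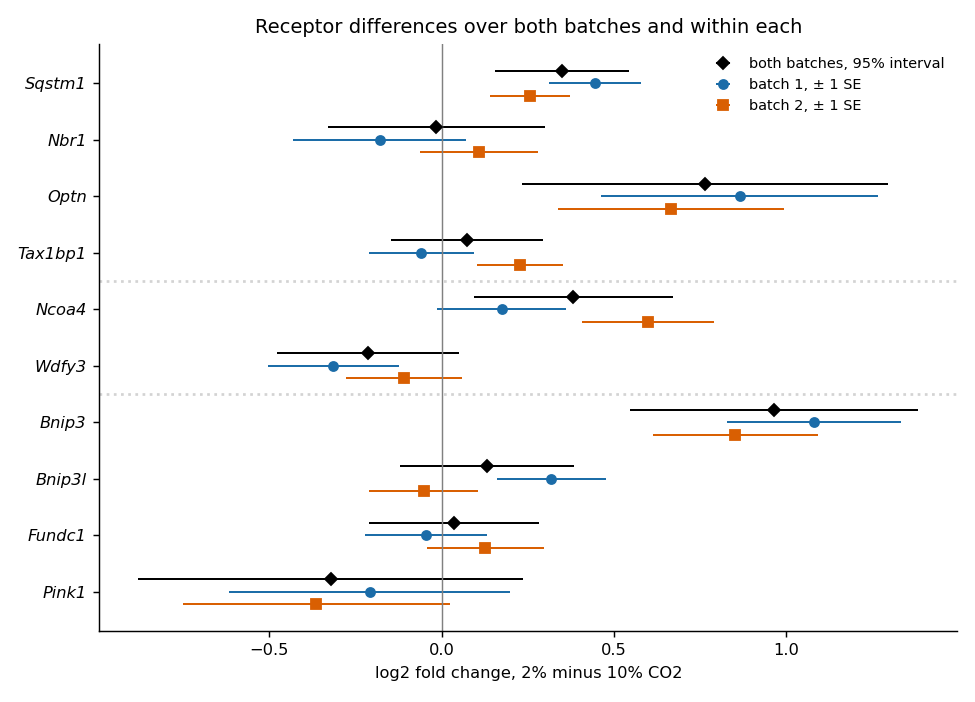
Log2 fold change of each receptor transcript, 2% minus 10% CO2, over both batches (diamonds, with 95% intervals) and within batch 1 (circles) and batch 2 (squares), each ± 1 SE, with dotted lines between the classes. Bnip3 lies near 0.97 in the joint fit with 1.08 and 0.85 in the batches, and the intervals of Nbr1, Tax1bp1, Wdfy3, Bnip3l, Fundc1 and Pink1 span 0.

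Set against each other, the mitochondrial and the ubiquitin-binding class each gave 1 rise and 3 genes that did not pass among 4 tested. Over all tested genes 5.30% were called higher and 6.73% lower. The median log2 fold change was 0.08 over the mitochondrial genes (from -0.32 for Pink1 to 0.97 for Bnip3), 0.21 over the ubiquitin-binding genes (from -0.01 for Nbr1 to 0.77 for Optn) and 0.0027 over all tested genes. In batch 1 the medians were 0.14 and 0.19 for the mitochondrial and the ubiquitin-binding genes, and in batch 2 they were 0.04 and 0.24. No difference between the classes was tested. The CO2 difference of a receptor gene did not pass a test of difference between batches for any of the 10, with a lowest edgeR adjusted p of 0.654 and 0 at an unadjusted p under 0.05; over all genes 0 were called and 1154 of 13198 had an unadjusted p under 0.05.

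Ratios of receptor pairs within a library need no scaling between libraries. The Bnip3 to Bnip3l ratio of counts, with 0.5 added to each, was 0.752, 0.379, 0.743, 0.462 and 0.409 in 2% CO2 replicates 1 to 5, against 0.503, 0.298, 0.449, 0.241 and 0.144 in 10% CO2 replicates 1 to 5. With batch held, it was 1.76-fold higher at 2% CO2 (log2 difference 0.82; group means -0.93 ± 0.48 and -1.75 ± 0.73 on the log2 scale at 2% and 10% CO2, SD, n = 5 each). The Sqstm1 to Nbr1 ratio ran from 4.68 to 13.8 at 2% CO2 and from 3.86 to 9.10 at 10% CO2, a 1.35-fold difference, and that of Optn to Tax1bp1 from 0.0432 to 0.280 and from 0.0315 to 0.0572, a 1.94-fold difference. Each of the 3 ratios had a two-sided exact permutation p of 0.05 within batches, and 0.05 after adjustment over the 3, which did not pass; 0.0167 was the smallest p that the 120 arrangements allow. The library of 2% CO2 replicate 2 had 3 counts of Optn and 2 of Nbr1. Without it the Optn to Tax1bp1 ratio differed by 1.51-fold and the Sqstm1 to Nbr1 ratio by 1.27-fold. In replicate 3 the Sqstm1 to Nbr1 ratio was lower at 2% CO2, at 8.35 against 9.10. Without 10% CO2 replicate 5, which had 5.33 counts of Bnip3, the Bnip3 to Bnip3l ratio differed by 1.56-fold.

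**Figure D3:**
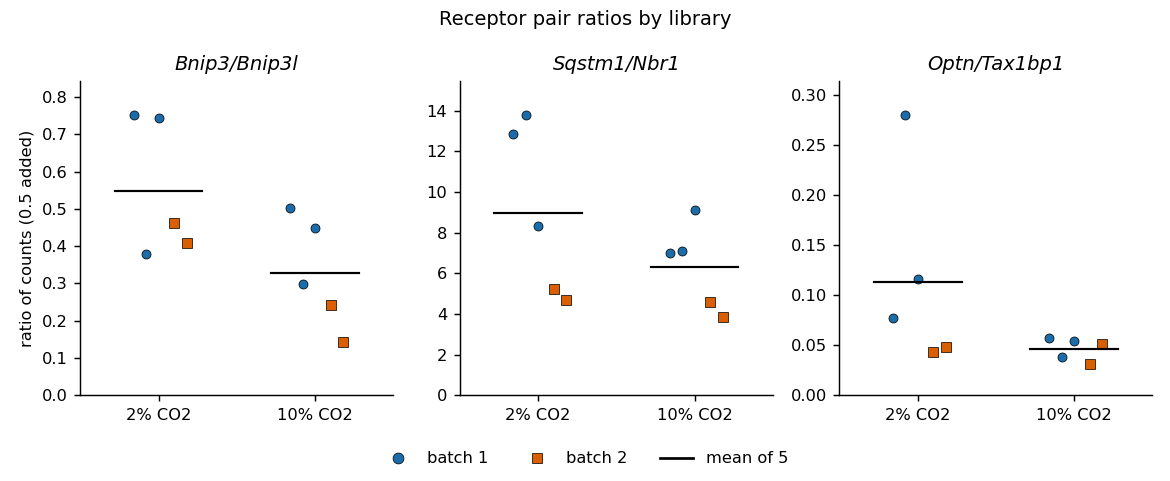
Ratio of counts of 3 receptor pairs in every library (0.5 added to each count, linear axes from 0), with 2% CO2 left and 10% CO2 right, circles for batch 1, squares for batch 2 and a line at the mean of 5. The Bnip3 to Bnip3l ratio lies higher at 2% CO2 within each same-numbered pair, and 2% CO2 replicate 2 stands highest for Optn to Tax1bp1, at 0.280.

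Of 32 listed genes in the rest of the mitophagy machinery 30 were tested, of which 2 rose, 0 fell and 28 did not pass, with a median log2 fold change of 0.10 (6.67% called, beside 12.0% of all tested genes). Pgam5 encodes a mitochondrial phosphatase that acts on FUNDC1. It was at 92.6 ± 9.50 CPM in 2% CO2 cultures and 60.1 ± 12.2 CPM in 10% CO2 cultures (SD, n = 5 each). Every 2% CO2 library lay above every 10% CO2 library, as in 3.19% of all tested genes. The Pgam5 call (log2 fold change 0.59 ± 0.11, edgeR adjusted p = 0.00158) was kept in all fits that left out a library. Tmem11, an outer membrane protein that restrains BNIP3 and NIX, rose by 0.40 on the log2 scale (99.2 ± 35.3 against 75.2 ± 20.4 CPM, SD, n = 5 each; edgeR adjusted p = 0.0345). That call ended when any of 10% CO2 replicates 1 to 4 or 2% CO2 replicates 1 or 4 was left out (adjusted p up to 0.257). Pptc7, a phosphatase that limits the same receptors, had a log2 fold change of 0.03 ± 0.15 (adjusted p = 0.938), with its sign turning when 10% CO2 replicates 1 or 4 or 2% CO2 replicate 5 was omitted. Spata18 was too low to test.

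Of 19 genes that act with the ubiquitin-binding receptors, 0 rose, 2 fell and 17 did not pass (median log2 fold change -0.03). The share called was 10.5%, beside 12.0% of all tested genes. Ubqln2, a shuttle that carries ubiquitinated proteins, fell by 0.49 on the log2 scale (55.2 ± 18.01 against 62.9 ± 5.61 CPM), and Vcp, the ATPase that extracts them from complexes, fell by 0.33 (259 ± 74.7 against 300.1 ± 79.1 CPM, SD, n = 5 each; edgeR adjusted p = 0.0179 and 0.0247). Scaling to library totals ended both calls (adjusted p = 0.0589 and 0.112), as did leaving out 10% CO2 replicate 4 or one of 2% CO2 replicates 1 and 4 (adjusted p up to 0.0958), and that of Vcp also ended when 10% CO2 replicates 1 or 3 or the filter on low counts was left out. Tbk1 and Keap1 had log2 fold changes of -0.05 ± 0.14 and 0.08 ± 0.12 and did not pass (edgeR adjusted p = 0.892 and 0.747). Tbk1 turned to 0.02 with scaling to library totals. Calcoco2, the gene of the receptor NDP52, had 3 and 1 counts in 10% CO2 replicates 3 and 4 and 0 in the other libraries; it was named after its counts were seen.

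In the LC3 and GABARAP family, the autophagosome proteins that the receptors bind, 2 of 5 rose and 3 did not pass, beside 5.30% of all tested genes called higher. Gabarap was at 535 ± 67.9 CPM in 2% CO2 cultures and 391 ± 26.0 CPM in 10% CO2 cultures (SD, n = 5 each). Every 2% CO2 library lay above every 10% CO2 library, as in 3.19% of all tested genes. The log2 fold change of Gabarap was 0.38 ± 0.11 (edgeR adjusted p = 0.0335). Map1lc3b, with fractional counts in all 10 libraries, rose by 0.49 on the log2 scale (107.4 ± 34.2 against 77.5 ± 19.8 CPM, SD, n = 5 each; adjusted p = 0.0326). The Gabarap call ended when any of 10% CO2 replicates 1 to 4 or 2% CO2 replicates 1 or 4 was left out (adjusted p up to 0.105). That of Map1lc3b ended in 7 of the 10 fits of this kind (up to 0.144), all but those that omitted 10% CO2 replicate 1 or 2% CO2 replicates 2 or 5, and without the 3 shallowest libraries (0.0507).

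Around the ferritin receptor Ncoa4, 1 of 8 tested genes of ferritin and iron uptake rose (12.5% called, beside 12.0% of all tested genes). Tfrc, the transferrin receptor, was at 261 ± 68.0 CPM in 2% CO2 cultures and 109.1 ± 22.8 CPM in 10% CO2 cultures (SD, n = 5 each). Its log2 fold change of 1.14 ± 0.10 (edgeR adjusted p = 2.45e-06) was kept in all fits that left out a library. Fth1, the heavy chain of ferritin, had -0.12 ± 0.12 (adjusted p = 0.608).

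Bnip3 is a HIF target, and of 24 other tested targets 2 rose, 0 fell and 22 did not pass (median log2 fold change 0.16). The share called was 8.33%, beside 12.0% of all tested genes. Kdm3a, a histone demethylase, rose by 0.57 on the log2 scale (26.4 ± 4.10 against 18.2 ± 2.52 CPM, SD, n = 5 each; edgeR adjusted p = 0.00999). Leaving out 10% CO2 replicate 4 or 2% CO2 replicate 1 ended the call (0.104 and 0.0712). Ankrd37 rose by 0.67 (7.22 ± 4.13 against 5.33 ± 0.279 CPM, SD, n = 5 each; adjusted p = 0.0475), although 2% CO2 replicate 2 held 0 counts of it; of the 10 fits with 1 library omitted, 1 kept its call, the one without 2% CO2 replicate 2, and the call also ended with limma-voom (0.110) and with no filter on low counts (0.0764). Of 21 tested NRF2 targets, which include Fth1 and Ftl1 of the iron list, 2 fell and 0 rose (median log2 fold change -0.16). The share of NRF2 targets called was 9.52%, beside 12.0% of all tested genes. Cat, catalase, fell by 0.51 on the log2 scale (40.6 ± 2.73 against 55.6 ± 7.10 CPM, SD, n = 5 each; adjusted p = 0.00664) in all fits that left out a library. Abcc1, a glutathione-conjugate exporter, fell by 0.42 (67.3 ± 18.5 against 78.8 ± 10.9 CPM, SD, n = 5 each; adjusted p = 0.0426), a call lost in 7 of these 10 fits, all but those that omitted 10% CO2 replicate 5 or 2% CO2 replicates 2 or 4 (up to 0.211), and with scaling to library totals (0.125).

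Of 13 tested genes of mitochondrial biogenesis and dynamics 3 rose, 1 fell and 9 did not pass (median log2 fold change 0.08). The share called was 30.8%, beside 12.0% of all tested genes. Nrf1, nuclear respiratory factor 1, rose by 0.56 on the log2 scale (61.6 ± 16.5 against 42.7 ± 7.88 CPM, SD, n = 5 each; edgeR adjusted p = 0.00593), a call that leaving out 10% CO2 replicate 4 ended (0.0553). Tfam and Tfb1m, which serve transcription and ribosomal RNA methylation in mitochondria, rose by 0.33 and 0.75 on the log2 scale (adjusted p = 0.0411 and 0.0492), and Esrra, a nuclear receptor, fell by 0.46 (0.0280). The calls of Tfam, Tfb1m and Esrra ended in 8, 9 and 6 of the 10 fits with 1 library omitted. The Tfam call lasted when 10% CO2 replicate 5 or 2% CO2 replicate 2 was omitted, the Tfb1m call when 10% CO2 replicate 5 was, and the Esrra call when replicate 2 of either CO2 level, 10% CO2 replicate 5 or 2% CO2 replicate 3 was. With no filter on low counts the calls of Tfam, Tfb1m and Esrra ended (adjusted p = 0.133, 0.0905 and 0.0817), as they did without the 3 shallowest libraries (0.0805, 0.0722 and 0.0507). The Tfb1m call also ended with RLE scaling (0.0501) and DESeq2 (0.0685), and scaling to library totals ended the Esrra call (adjusted p = 0.0633).

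**Figure D4:**
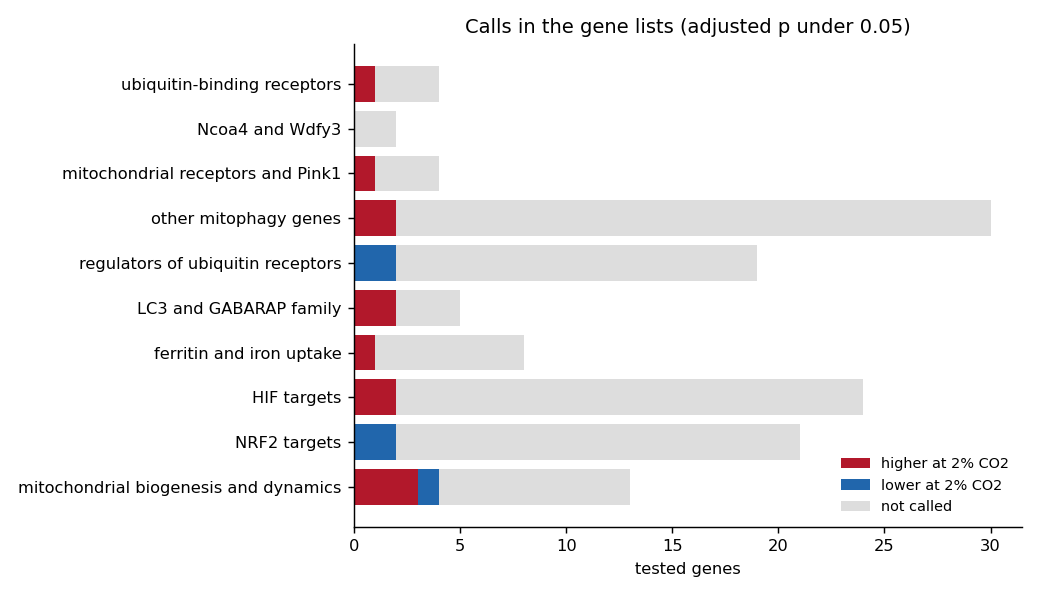
Number of tested genes in each list that were higher (red), lower (blue) or not called (grey) at 2% against 10% CO2, at an edgeR adjusted p under 0.05. The 2 classes of 4 receptors and the LC3 and GABARAP family hold 1, 1 and 2 higher genes, beside 2 of 30 other mitophagy genes. Of all 13198 tested genes 5.30% were called higher.

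By likeness of profile, the 3 genes closest to Bnip3 among 6997 genes of at least 20 CPM were Bcl2l1, Hagh and Rassf7, which differed from it by 0.39, 0.39 and 0.41 on the log2 scale (root mean square over 10 libraries after removing each gene's mean), against a median of 0.91 over these genes. The same measure placed Atp6v1g1, Cltb and Pno1 closest to Sqstm1, at 0.07, 0.08 and 0.08 against a median of 0.41. Likeness includes the batch and CO2 differences that these genes share with many others.

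**Figure D5:**
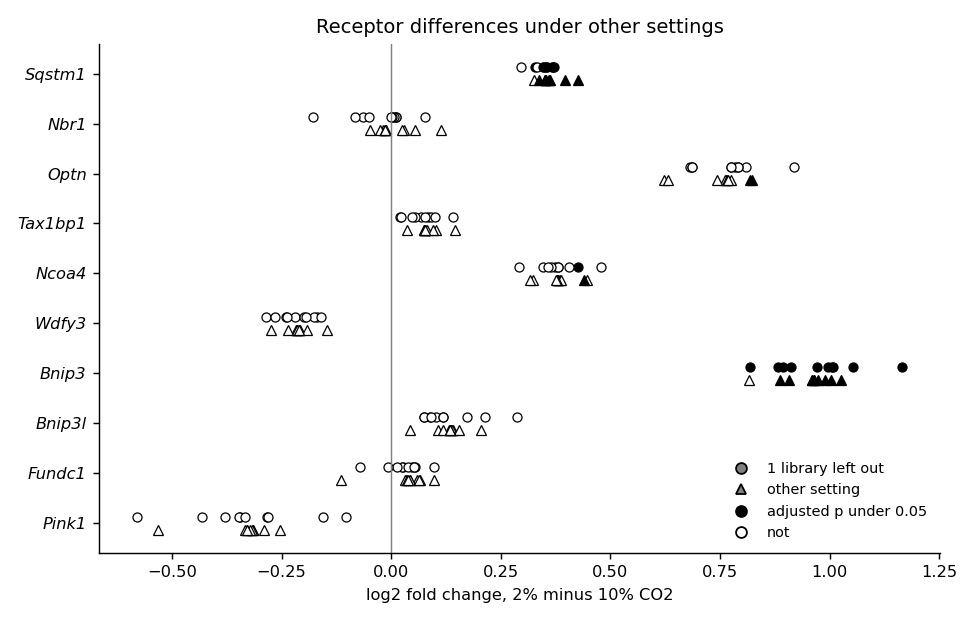
Log2 fold change of each receptor transcript, 2% minus 10% CO2, in fits that left out 1 library (circles) or changed another setting (triangles), filled where the adjusted p was under 0.05. Bnip3 stays between 0.82 and 1.17 and is open in 1 setting, with no batch term, while Nbr1 lies on both sides of 0.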

How the data were processed

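RNA of 10 libraries was measured by sequencing of tagmented cDNA made from mRNA, per the labels' protocols. The submitters' processing notes name build GRCm39, STAR 2.7.11, Subread 2.1.1 with featureCounts, SAMtools 1.22.1 and MultiQC 1.32; no source used here gives settings, annotation or strandedness. What the authors deposited as counts are estimated counts for each gene without normalization, of which 71.0% to 79.2% of nonzero values per library are whole to within 1e-06. The deposited CPM equal counts over library totals (largest difference 4.8e-05 CPM). Spike-in entries, 92 in all with 0 counts, were left out.

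After rounding, counts went into edgeR 4.0.16 under R 4.3.3 (filterByExpr with CO2 level as group, minimum count 10, total 15; TMM; robust quasi-likelihood F tests of batch plus CO2; Benjamini-Hochberg over 13198 genes). SE is the log2 fold change over the square root of F. By chi-square test, 0 of 8 library pairs that share CO2 level and batch differed by less than sampling noise, so none was counted as a duplicate.

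The receptors, the gene lists and the tests were chosen with earlier results of these data known. Named were the 10 receptors, up to 4 called genes of each list, Tbk1, Keap1, Map1lc3b, Fth1 and Pptc7, and the 3 genes nearest in profile to Bnip3 and Sqstm1 (log2 CPM, prior count 2), except some results that are not reported here. Same-numbered libraries deviated together from their CO2 means (correlations 0.776, 0.302, 0.465, 0.874 and 0.498 over 5289 genes), which a shared batch can give. After batch means were removed too, the correlations were 0.446, 0.297, 0.0427, 0.408 and 0.408. The last 2 are the same value by construction, since batch 2 held 2 libraries per CO2 level and their deviations mirror each other. The first 3 are not independent either, as deviations from a shared mean cancel. All pairs but pair 3 stayed above 0.1. The replicate block was therefore an alternative to batch. Others were scaling by RLE or library totals, limma-voom (limma 3.58.1), DESeq2 1.42.0, other filters, no batch term and left-out libraries; rounding down and pseudogene counts were added after seeing the data. Promoters are RefSeq's, in build GRCm38.p6. The 95% intervals are those of the edgeR fit.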

Additional observations from a re-analysis of the deposited data

Results flagged for a closer look

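Of 75 sets of 5 libraries, 3 held a library far from the other 4 by the gap over the range (critical value 0.710); chance flags about 1 in 20 sets, 3.8 here. None was a receptor of the 10. For Ankrd37 the shallowest library, 2% CO2 replicate 2, had 0 CPM, with the next lowest 2% CO2 library at 8.09 CPM. Gabarap was at 655 CPM in 2% CO2 replicate 1, with the next highest 2% CO2 library at 517 CPM. Calcoco2 was at 0.370 CPM in 10% CO2 replicate 3, which rests on 3 counts, with the next highest at 0.0943 CPM. No receptor differed in its CO2 response between batches by the interaction test.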

How the results depend on the processing

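Of 208 values of the receptors under other settings, 185 kept direction and side of the threshold, 6 lost a call, 4 gained one and 13 changed sign. The count of receptors called, 2, became 1 with no filter on low counts and 0 with no batch term, and ran from 1 to 3 over fits that left out a library (1 without 10% CO2 replicates 3 or 4 or 2% CO2 replicate 1). Over all genes 1588 calls became 351 with no batch term and ran from 736 (without 10% CO2 replicate 4) to 1726 (without 10% CO2 replicate 5), with 1015 without 2% CO2 replicate 4. In batch 1 alone 1 receptor was called, and 2 with RLE or library total scaling. The cause of these changes was not tested. Signs changed in these named genes, as log2 fold changes: Nbr1 had 0.0531 with library totals, 0.0298 with limma-voom, 0.113 with no batch term, 0.0241 without the 3 shallowest libraries and -0.179 to 0.0761 with a library left out; Fundc1 had -0.114 with no batch term and -0.0717 to 0.0967 with a library left out; Tbk1 had 0.0162 with library totals, 0.00573 with no batch term and -0.206 to 0.0797 with a library left out, and Pptc7 -0.175 to 0.101 with a library left out. Of 544 values of the other named genes, 414 kept direction and side, 121 lost a call, 2 gained one and 7 changed sign.

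With no batch term Tfrc and Cat kept their calls and the other named list genes lost theirs. With the replicate block in place of batch, 1927 genes and 3 receptors were called; Ncoa4 gained its call (log2 fold change 0.44), Bnip3 had 0.89 and Sqstm1 0.34. Of the other named genes, Ankrd37, Tfam and Tfb1m lost their calls under the block (adjusted p = 0.0926, 0.0678 and 0.0524). Under the block the ratio differences were the same (0.82, 0.43 and 0.95), and the smallest exact permutation p that 32 sign arrangements allow is 0.0625. Without the 3 shallowest libraries the smallest is 0.0833, so neither can pass. With 10 CPM in 5 libraries as the filter, Optn and Pink1 were not tested. Pink1, Optn and Nbr1 had 1 to 3 counts in the shallowest library, which limits what that library shows of them.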

Other observations

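Batch separated some receptors at both CO2 levels. Every batch 1 library lay above every batch 2 library of the same CO2 level for Sqstm1, Bnip3 and Fundc1, and below it for Nbr1. Fundc1 averaged 33.7 CPM in batch 1 and 24.9 CPM in batch 2 at 2% CO2, and 32.8 and 22.5 CPM at 10% CO2. Nbr1 averaged 15.8 CPM in batch 1 and 27.7 CPM in batch 2 at 2% CO2, and 17.8 and 25.4 CPM at 10% CO2. Bnip3 averaged 44.7 CPM in batch 1 and 25.1 CPM in batch 2 at 2% CO2, and 23.2 and 10.3 CPM at 10% CO2. These values were not tested. How many of all tested genes separate by batch in this way was not counted, so the separation is not a result about these receptors.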
